A study of Homo sapiens with 12 samples.

Results

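The WT libraries of both assays, 6 of the 12 samples of the series, were set side by side to ask which short noncoding RNAs each kind of library captured. They came from HEK293, an established human embryonic kidney line, carrying a Flp-In T-REx cassette that makes FLAG-tagged, recoded WT DIS3L2 together with sh-miRNAs against the endogenous DIS3L2 mRNA. All 6 libraries came from cells given doxycycline at 100 ng/ml for 3 days, so no library stands for cells without the cassette or the drug, and whether the line is 1 clone is not given in the sources used here. There were 3 total RNA libraries (Ribo-Zero depleted of rRNA, stranded TruSeq, a protocol that favours RNAs over 200 nt) and 3 small RNA libraries (TAP-treated, gel-selected at 20 to 200 nt in the labels, with 220 nt as the upper limit in the series design). The labels do not say whether the replicates were grown apart, so a p-value here speaks of variation among these libraries only, possibly technical.

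Short noncoding RNAs are mostly parts of RNA-protein machines. Small nuclear RNAs (snRNAs) form the spliceosomes, box C/D and box H/ACA small nucleolar RNAs (snoRNAs) guide methylation and pseudouridylation of rRNA, and small Cajal body RNAs (scaRNAs) do the same for snRNAs. Transfer RNAs read the codons, with a separate set encoded by mitochondrial DNA, while 7SK restrains the elongation factor P-TEFb, 7SL is the RNA of the signal recognition particle, and Y and vault RNAs bind the Ro60 protein and the vault particle.

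Total RNA libraries held 9611286, 12675042 and 8315986 counts in genes and small RNA libraries 515938, 493314 and 585737 fragments. Levels are given as CPM (counts over the total in genes, scaled per 1e+06) for total RNA and as FPM (fragments over the library total, scaled likewise) for small RNA, and 3 counts per library correspond to 0.237 to 0.361 CPM and 5.12 to 6.08 FPM. Reads with several alignments were 30.5% to 39.5% and reads overlapping several genes 6.90% to 8.28% of all deposited total RNA reads, and neither kind is in the gene counts. Values of single genes with near-identical copies (U1, U2, U6, 7SL, U3 and many snoRNA and tRNA genes) or within other genes are therefore uncertain, and how much these reads bear on the levels below was not tested. DIS3L2 was counted at 768, 819 and 760 CPM, transgene and endogenous transcripts not being told apart. Of 9 markers listed for HEK293 and embryonic kidney, VIM was highest at 1207 ± 64.5 CPM and PAX2 lowest at 0.465 ± 0.0643 CPM. The epithelial list gave 38.3 CPM for EPCAM and 1.49 CPM for CDH1. In the blood list PTPRC and HBA1 had 0.0927 and 0.115 CPM and CD3E and HBB 0, and in the fibroblast list COL1A1 had 1.46, 1.97 and 1.08 CPM, PDGFRA 1.10 CPM, COL3A1 0.329 CPM and DCN and LUM 0 (SD, n = 3 here and throughout).

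Across 16 classes of short noncoding RNA, with pseudogenes of snRNA, Y, 7SK and 7SL genes left out, the total RNA libraries gave 5.96 ± 0.19% of their counts to these RNAs and the small RNA libraries 85.2 ± 0.66%. The 2 assays filled that share with different classes, but their lists also differed. No total RNA gene was named as a nuclear tRNA, and 7SK and 7SL had no matched small RNA feature. In total RNA 7SK alone made up 91.0% of the short noncoding counts, and all other classes together reached 0.534 ± 0.080% of the library. In small RNA box C/D snoRNAs (28.6 ± 1.70% of the library), U5 snRNA (18.9 ± 1.16%), nuclear tRNA (17.4 ± 0.78%) and the snRNAs of the minor spliceosome (10.1 ± 1.23%) led. Nuclear tRNA was above U5 in library 2 (18.2% and 17.6%), so the order of this pair is not resolved.

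**Figure D1:**
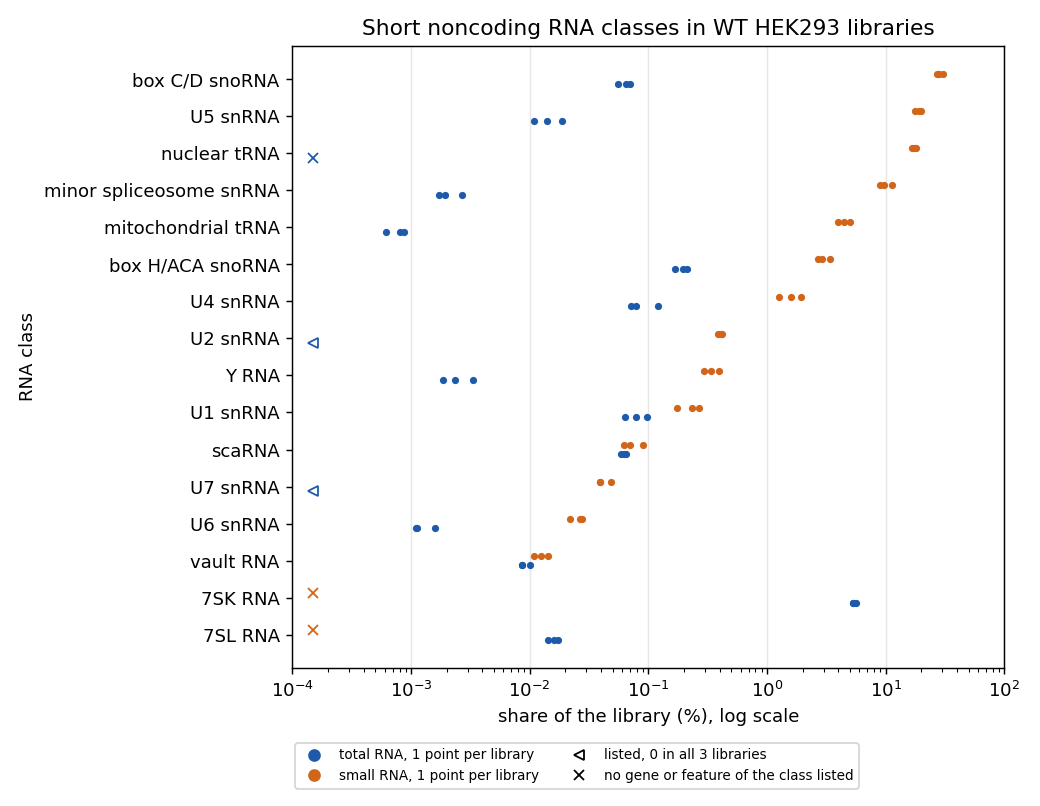
Share of each library (%, log scale) in 16 classes of short noncoding RNA, 1 point per WT library, total RNA in blue and small RNA in orange; arrowheads mark a class listed at 0 in all 3 libraries and crosses a class with no gene or feature listed. Box C/D snoRNAs sit at 28.6% on average in small RNA and 0.0635% in total RNA, while the scaRNA points of the assays overlap.

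Behind 7SK, total RNA ranked box H/ACA snoRNAs first, at 0.191 ± 0.022% of the library, followed by U4 (0.0903 ± 0.026%), U1 (0.0803 ± 0.017%), box C/D snoRNAs (0.0635 ± 0.0078%) and scaRNAs (0.0621 ± 0.0029%). U4 was below U1 in library 2 and box C/D snoRNAs below scaRNAs in library 3, so the order within each of these pairs is not resolved. U4 and U1 were each above box C/D snoRNAs and scaRNAs in every library, which was not tested. Small RNA continued with mitochondrial tRNA (4.50 ± 0.51%), box H/ACA snoRNAs (3.00 ± 0.37%) and U4 (1.60 ± 0.34%). U2 (0.406 ± 0.018%), Y RNA (0.343 ± 0.052%) and U1 (0.226 ± 0.048%) followed.

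Per library, box C/D snoRNAs held 0.0703%, 0.0652% and 0.0551% of total RNA and 28.1%, 30.5% and 27.2% of small RNA, so the groups did not overlap. Of the 13 classes listed in both assays, 12 had all 3 small RNA libraries above all 3 total RNA libraries (exact two-sided permutation test, p = 0.1 for each, the smallest that 3 against 3 allows, adjusted p = 0.108). For scaRNAs the small RNA share was 0.0749 ± 0.014% and the groups overlapped (exact permutation p = 0.2, adjusted p = 0.2). As shares of the short noncoding counts alone, with 7SK in the denominator, U1, scaRNA and vault RNA were lower in small RNA than in total RNA. With 7SK taken out of the denominator, box H/ACA snoRNAs (35.8% of total RNA, 3.53% of small RNA), U4 (16.9% and 1.88%) and U6 (0.238% and 0.0298%) were lower in small RNA as well, while the libraries of the assays overlapped for Y RNA (0.468% and 0.403%, exact permutation p = 0.4).

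The balance of the 2 snoRNA families was inverted between the assays. The ratio of box C/D to box H/ACA counts was 0.334, 0.333 and 0.330 in total RNA and 9.68, 11.3 and 7.96 in small RNA. Both families together held 0.254 ± 0.030% and 31.6 ± 1.38% of the libraries, and the spliceosomal snRNAs 0.189 ± 0.047% and 31.2 ± 2.39%.

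Shares by gene length also differed between the assays, over unlike sets of genes. Nuclear tRNAs (512 features) were listed in small RNA alone and 7SL in total RNA alone. Of 709 total RNA members 518 had a length. The bin up to 80 nt held 156 genes in total RNA and 571 in small RNA. Without 7SK, genes of up to 80 nt gave 0.770% of short noncoding counts in total RNA, genes of 81 to 120 nt 5.26%, genes over 120 and up to 200 nt 48.6% and longer genes 45.4%. In small RNA the same bins held 35.7%, 42.9%, 20.7% and 0.753%. These shares are means over 3 libraries, and in each bin the libraries of the assays did not overlap.

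**Figure D2:**
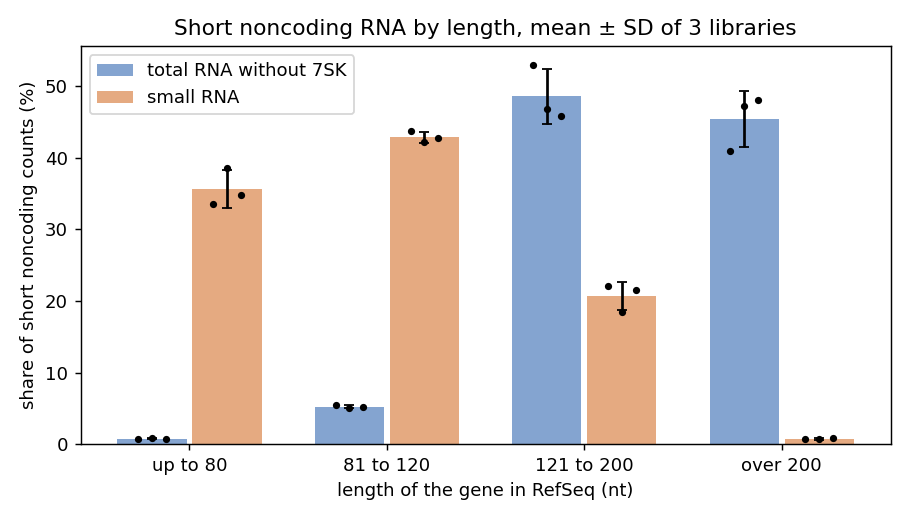
Share of short noncoding counts (%) by gene length in RefSeq (nt), for total RNA without 7SK (blue) and small RNA (orange); bars are means, error bars SDs and points the 3 WT libraries. Genes over 120 nt hold most of the total RNA counts and genes up to 120 nt most of the small RNA counts. Nuclear tRNAs enter the small RNA bars alone and 7SL the total RNA bars alone.

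Among matched snoRNA and scaRNA genes with counts in both assays, the median ratio of FPM to CPM was 394 for genes up to 80 nt, 265 for 81 to 120 nt, 17.0 for over 120 and up to 200 nt and 0.237 for longer ones. Detection (at least 1 count over the 3 libraries of the assay) went the same way in total RNA, which found 24 of 115, 28 of 120, 90 of 151 and 14 of 21 of the matched genes in these bins, against 63, 47, 122 and 16 in small RNA. The bins up to 120 nt include copies of SNORD113, SNORD114, SNORD115 and SNORD116, nearly all at 0 in both assays. Detection by length is thus not separated from these families, and it was not computed without them. Over the 186 matched genes of all classes found in both assays, the ratio of FPM to CPM had a Spearman rho of -0.55 with length. The levels of these 186 genes in the 2 assays had a rho of -0.06. Within classes the rho of the ratio with length was weaker or of opposite sign, -0.28 for 56 box C/D snoRNAs, -0.11 for 66 box H/ACA snoRNAs, -0.33 for 16 scaRNAs and 0.49 for 18 U1 genes, and that of the levels was 0.07, 0.15, -0.31 and 0.64. These are descriptions across genes, which are not independent replicates and share their libraries.

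The 2 assays could be matched gene by gene for 479 members of these classes, with no nuclear tRNA, 7SK or 7SL among them. Of these 186 had counts in both assays, 123 in small RNA alone, 24 in total RNA alone and 146 in neither. The 479 included 106 genes with at least 30 fragments in small RNA and 0 counts in total RNA, of which 61 were box C/D and 32 box H/ACA snoRNAs. The reverse held for 2 genes, both of the U1 class.

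Of 2275 matched genes, pseudogenes included, 296 passed the filter on low counts and were tested for a difference in library share. Small RNA was higher for 264 of them, 89.2% of the genes tested, and lower for 14, or 4.73% (edgeR quasi-likelihood test, adjusted p under 0.05). The libraries of the assays did not overlap for 260 genes higher in small RNA (87.8%) and 16 lower (5.41%). The median fitted log2 ratio was 9.42 over all genes tested. It was 5.03 with TMM scaling, which called 198 genes higher (66.9%) and 75 lower (25.3%), and 3.07 with DESeq2 size factors, so each direction below is one of library share. Of the 296 genes 117 had 0 counts in total RNA, and their fitted ratios have no measured denominator.

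By class, 111 of the 114 box C/D snoRNAs tested were higher in small RNA and 2 lower, with a median fitted log2 ratio of 12.28. For box H/ACA snoRNAs 88 of 98 were higher and 3 lower (median 7.26), which is about the share over all genes tested. For scaRNAs 14 of 19 were higher and 5 lower (median 3.65), and for U1 genes 7 of 17 higher and 3 lower (median 0.19). TMM scaling gave 104 box C/D snoRNAs higher and 6 lower, 55 box H/ACA snoRNAs higher and 30 lower, 7 scaRNAs higher and 11 lower, and 1 U1 gene higher and 16 lower. A gene that passed the filter through its counts in 1 assay alone had to differ, and 62 of the 114 box C/D genes had 0 counts in total RNA. So did 38 of the 98 box H/ACA genes. The medians of these classes therefore rest partly on fitted ratios without a measured denominator. With TMM or DESeq2 scaling the median turned negative for U1, U4, U6, scaRNA and vault RNA, and remained positive for box C/D and H/ACA snoRNAs, U5, minor spliceosome snRNA, U7, Y RNA and mitochondrial tRNA.

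**Figure D3:**
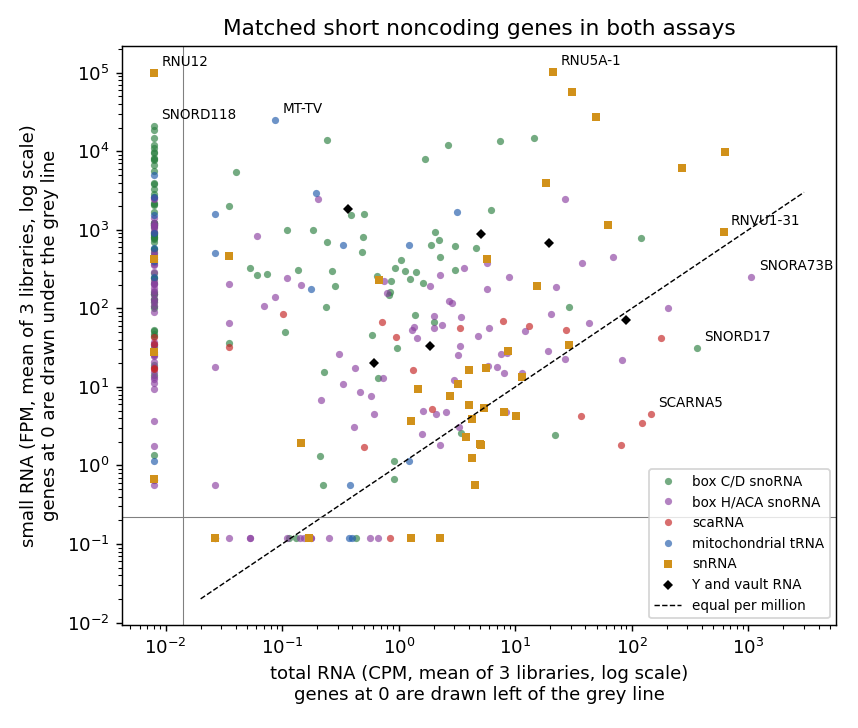
Mean level of matched short noncoding genes in WT total RNA (CPM) and small RNA (FPM), both on log scales, 1 point per gene coloured by class; genes at 0 in 1 assay are drawn beyond the grey lines, and the dashed line marks equal CPM and FPM. RNU12 and SNORD118 sit at 0 in total RNA, and SCARNA5 and SNORD17 lie under the dashed line.

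The spliceosomal snRNAs gave the highest single members of the small RNA libraries. RNU5A-1 (chromosome 15, 65296051 to 65296166), a copy of the U5 snRNA that aligns exons in both spliceosomes, had 50928, 48757 and 62439 fragments and averaged 101381 ± 4519 FPM, the highest mean. In total RNA it had 259, 250 and 138 counts, or 21.1 ± 5.31 CPM. All small RNA values thus exceeded all total RNA values by a wide margin. RNU5B-1 had 56296 ± 4078 FPM and 30.4 ± 11.2 CPM, RNU5E-1 26946 ± 4269 FPM and 49.3 ± 13.2 CPM, and RNU5F-1 3919 ± 808 FPM in small RNA. RNU5D-1, whose deposited feature starts 14 nt from the RefSeq gene and was named only with a tolerance of 20 nt, had 951 ± 254 FPM and 26.5 ± 6.98 CPM.

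The order of the U5 copies differed between the assays. The ratio of RNU5A-1 to RNU5E-1 was 0.434, 0.394 and 0.463 in total RNA and 3.27, 4.47 and 3.74 in small RNA. This pair and the others whose ratios are given below were chosen after their values were seen, so the ratios are descriptions. Such a ratio does not depend on the scaling between assays.

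RNU12 (chromosome 22, 42615244 to 42615393), the U12 snRNA that pairs with the branch site of minor introns, had 58387, 43912 and 56672 fragments, or 99645 ± 12333 FPM, and was above RNU5A-1 in library 1, so the order of the highest pair is not resolved. It had 0 counts in all 3 total RNA libraries, where by counting error alone a count of 0 allows up to 0.0980 CPM over the group. Against that floor its counted share was at least 1.02e+06-fold higher in small RNA. Reads left out of the gene counts could lower this figure, which was not tested. RNU12 made up 98.9% of its class. The other minor spliceosome RNAs were far lower, RNU11 at 459 ± 62.4 FPM, RNU4ATAC at 429 ± 66.6 FPM and RNU6ATAC at 193 ± 38.0 FPM. In total RNA RNU6ATAC led with 15.3 ± 4.53 CPM, RNU4ATAC had 5.76 ± 1.31 CPM and RNU11 had 1 count in 1 library.

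U4, which chaperones U6 before activation, was among the few snRNAs well counted in both assays. RNU4-2 had 8058, 7047 and 4219 counts (634 ± 179 CPM) in total RNA, where its rank among all members was 3, and 9854 ± 2302 FPM in small RNA. RNU4-1 had 269 ± 81.3 CPM and 6143 ± 1141 FPM. The ratio of RNU4-2 to RNU4-1 was 2.36 ± 0.056 in total RNA and 1.59 ± 0.083 in small RNA, a far smaller shift than among the U5 copies.

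For U1, which recognises the 5′ splice site, total RNA was dominated by the variant gene RNVU1-31 (chromosome 1, 145465617 to 145465780) with 7536, 7499 and 3869 counts, or 76.4% of the class. In small RNA it had 484, 383 and 630 fragments, next to 636, 404 and 828 for RNVU1-7. The canonical gene RNU1-1 had 26, 35 and 35 counts in total RNA and 10.98 ± 5.28 FPM. The ratio of RNVU1-31 to RNVU1-7 was 9.94 ± 2.22 in total RNA and 0.823 ± 0.108 in small RNA. RNVU1-3 had 139 counts over the total RNA libraries and 1 fragment in small RNA (log2 ratio -2.80, SE 1.02, edgeR adjusted p = 0.00646). Its call was lost without small RNA library 1 (adjusted p = 0.0505).

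U2, which pairs with the branch site of major introns, was seen in small RNA through RNU2-2 (chromosome 11, 62841619 to 62841809), with 2175, 1903 and 2405 fragments (4060 ± 183 FPM). RNU2-1 was at 0 in both assays and RNU2-2, listed in total RNA under the older symbol RNU2-2P, was at 0 there. The pseudogene RNU2-63P had 6.55, 6.39 and 6.13 CPM in total RNA and 0 fragments, 195 counts against 0, and passed the filter through total RNA alone. U6, the catalytic snRNA, was low everywhere, with RNU6-9 at 228 ± 31.8 FPM and RNU6-7 at 4.03 ± 1.09 CPM the highest members. RNU7-1, which guides histone mRNA 3′ end cleavage, had 425 ± 51.7 FPM and 0 counts in total RNA.

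Box C/D snoRNAs were spread over many members in small RNA and few in total RNA. In small RNA 11 genes held 50% and 43 genes 90% of the class, of 128 detected among 258. In total RNA 1 gene, SNORD17, held 56.7%, and 9 genes held 90%, of 88 detected among 384. The highest means in small RNA were those of SNORD118 (U8, needed for processing of large-subunit rRNA) at 21139 ± 2450 FPM, SNORD24 at 18715 ± 1301 FPM and SNORD13 (U13, an unusual snoRNA with its own promoter) at 14838 ± 3140 FPM. SNORD24 was above SNORD118 in library 2. SNORD5 (mean 14588 FPM) was above SNORD13 in libraries 2 and 3, so the order within each of these pairs is not resolved.

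SNORD118 (chromosome 17, 8173454 to 8173587) had 10210, 9699 and 14038 fragments and SNORD24, a short intronic snoRNA of RPL7A, had 9436, 9953 and 10356. Both were at 0 in every total RNA library. The 10 largest fitted differences towards small RNA were RNU12 and 9 box C/D snoRNAs with 0 counts in total RNA, namely SNORD118, SNORD24, SNORD5, SNORD26, SNORD58A, SNORD88C, SNORD14C, SNORD45A and SNORD45C. Against the floor of 3 counts over the group the counted shares of these 9 were at least 80097-fold (SNORD45C) to at least 217108-fold (SNORD118) higher in small RNA. This floor covers counting error only. Reads overlapping several genes are not in the gene counts, and what they would add to these 0 counts was not tested. Other abundant members were counted in total RNA, SNORD13 at 14.5 ± 1.84 CPM, SNORD46 (13640 FPM) at 7.39 CPM and SNORD83A (11932 FPM) at 2.67 CPM.

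SNORD17 (chromosome 20, 17962710 to 17962946), at 237 nt among the longest box C/D snoRNAs, had 379, 376 and 326 CPM in total RNA and 19.4, 46.6 and 27.3 FPM in small RNA. Its share was 3.55 lower on the log2 scale in small RNA (log2 ratio -3.55, SE 0.26, edgeR adjusted p = 6.52e-40). SNORD15B had 120.9 ± 39.4 CPM and 794 ± 274 FPM, and SNORD94 28.8 ± 6.40 CPM and 105 ± 31.6 FPM. SNORD3A, a U3 gene needed for small-subunit rRNA processing, had 5520 ± 734 FPM and a single count in total RNA, whereas the U3 copy SNORD3B-2 had 22.1 ± 2.49 CPM and 2.43 ± 2.12 FPM (edgeR adjusted p = 1.11e-07). U3 copies are nearly identical, so this contrast between copies is uncertain.

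Most box C/D snoRNAs lie in introns of host genes, from which they are cut out after splicing. Of the 258 listed in small RNA 180 lay within 61 hosts counted in total RNA, and the host level had a Spearman rho of 0.12 with the snoRNA level over 96 detected snoRNAs, a description across genes of which many share a host. The median host level was 257 CPM for detected and 0.170 CPM for undetected snoRNAs. The second value is that of SNHG14, host of 75 listed snoRNAs, none of which had a fragment. By family, SNORD115 (43 listed), SNORD116 (30) and SNORD113 (9) had 0 fragments, and the 29 SNORD114 copies 4 in all.

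Within a single host, members ranged widely. TAF1D, which encodes a subunit of the RNA polymerase I factor SL1, hosts 8 detected snoRNAs, from SNORD5 at 14588 FPM to SNORA32 at 11.3 FPM. The 4 snoRNAs of RPL7A ran from SNORD24 at 18715 FPM to SNORD36C at 386 FPM, and the 6 of SNHG1 from SNORD26 at 11997 FPM to SNORD30 at 696 FPM. Host levels in total RNA were 99.03 CPM for TAF1D, 1444 CPM for RPL7A and 56.8 CPM for SNHG1, so they did not follow the sums of the snoRNAs, 25333, 20692 and 18074 FPM.

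Box H/ACA snoRNAs were captured by both assays, 117 of 145 in small RNA and 91 of 213 in total RNA. SNORA73B (chromosome 1, 28508558 to 28508762), a chromatin-associated snoRNA of 205 nt, had 10851, 14007 and 7906 counts in total RNA, ranked second after 7SK and held 55.6% of its class. In small RNA it had 108, 99 and 202 fragments (252 ± 80.9 FPM against 1062 ± 96.8 CPM, log2 ratio -2.07, SE 0.20, edgeR adjusted p = 2.28e-23). SNORA73A, a copy of nearly the same length, went the other way, with 0 counts in total RNA and 130, 109 and 230 fragments (289 ± 91.5 FPM), and how reads were split between these copies was not tested. SNORA53, of 250 nt, had 203 ± 27.8 CPM and 101 ± 23.9 FPM. The small RNA leaders, each of 132 to 139 nt, were SNORA18 at 2508 ± 308 FPM, SNORA7A at 2493 ± 287 FPM and SNORA71D at 2480 ± 305 FPM, which did not differ beyond their spread.

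ScaRNAs, which guide snRNA modification in Cajal bodies, were led by long members in total RNA. SCARNA13, SCARNA5, SCARNA6 and SCARNA7, of 266 to 330 nt, had 176 ± 10.2, 147 ± 1.94, 121.2 ± 10.5 and 80.95 ± 3.52 CPM in total RNA. They had 41.6 ± 13.2, 4.53 ± 2.45, 3.49 ± 4.48 and 1.81 ± 1.72 FPM in small RNA. SCARNA5 (chromosome 2, 233275726 to 233276003) had 1406, 1893 and 1212 counts against 3, 3 and 1 fragments (log2 ratio -5.06, SE 0.39, edgeR adjusted p = 8.49e-36). Of the 7 matched scaRNAs over 200 nt, SCARNA2, SCARNA12 and SCARNA10 had 0, 0 and 1 counts in total RNA and 17.5 ± 1.76, 35.5 ± 4.58 and 32.1 ± 3.89 FPM in small RNA. The shorter SCARNA21, of 138 nt, was also lower in small RNA, at 36.4 ± 1.88 CPM and 4.24 ± 2.42 FPM. The highest means in small RNA, SCARNA4 at 92.9 ± 8.27 FPM and SCARNA3 at 84.8 ± 23.7 FPM, did not differ beyond their spread.

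Nuclear tRNAs were analysed in small RNA alone, as no gene counted in total RNA was named as one. Of 421 genes that RefSeq types as tRNA, 370 had fragments. The class of 512 features also holds 83 of pseudogene type, with 0.605% of its fragments. TRU-TCA1-1 (chromosome 19, 45478602 to 45478687), the tRNA that carries selenocysteine to recoded UGA codons, had 40268, 38423 and 43868 fragments. At 76943 ± 1777 FPM it held 44.2% of the class and had the highest mean level per kb of all members. In library 3 RNU5A-1 was above it per kb (106599 FPM at 116 nt against 74894 FPM at 86 nt), so this order is not resolved. TRE-TTC4-1, a glutamate tRNA, followed at 18836, 29799 and 24380 FPM, and TRE-TTC3-1, also for glutamate, at 6719 ± 933 FPM.

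By amino acid, over these 421 genes, selenocysteine (44.8 ± 2.44% of tRNA fragments), glutamate (18.8 ± 2.75%), alanine (7.28 ± 0.47%), arginine (5.76 ± 0.10%) and glycine (5.39 ± 0.21%) ranked highest. Methionine elongator tRNA (0.154 ± 0.022%) and tryptophan tRNA (0.0531 ± 0.0041%) ranked lowest. Arginine and glycine did not overlap in FPM, but their shares differed by little more than their SDs. Genes for 22 kinds of tRNA, the initiator included, were listed and all 22 kinds had fragments.

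**Figure D4:**
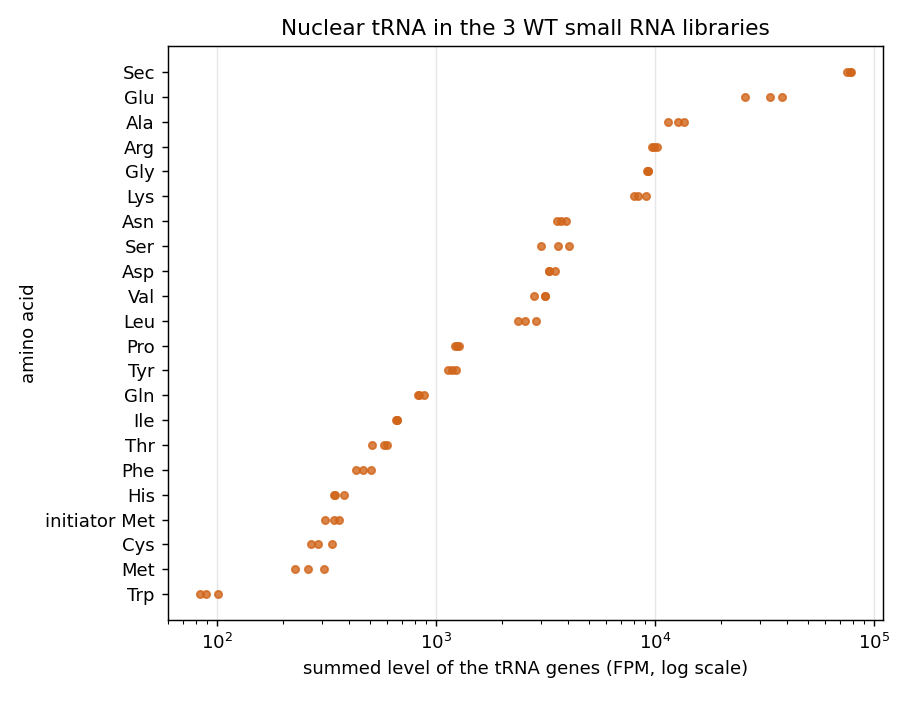
Summed level (FPM, log scale) of the nuclear tRNA genes of each amino acid in the 3 WT small RNA libraries, 1 point per library. Selenocysteine tRNA lies near 76945 FPM and tryptophan tRNA near 91.4 FPM.

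Fragments of the same genes fell mostly on tRNA families with 1 gene copy, a family being the genes with the same symbol up to the last number. The 199 single-copy genes held 74.9 ± 2.15% of tRNA fragments, or 54.6 ± 2.25% of the rest without TRU-TCA1-1. Families of 2 copies (44 genes) held 17.3%, those of 3 to 5 copies (89 genes) 4.75% and those of 6 or more (89 genes) 3.06%. Median levels per gene were closer, 36.2, 35.95, 24.2 and 17.9 FPM. How the authors counted fragments that align to several copies is not given in the sources used here, and its part in these shares was not tested.

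Mitochondrial tRNAs had the largest ratio between the assays of the classes detected in both, 4.50 ± 0.51% of small RNA and 0.000764 ± 0.000135% of total RNA. MT-TV, the valine tRNA that lies between the rRNA genes and is also found in the mitochondrial ribosome, had 11925, 11853 and 16351 fragments and 55.7% of the class. In total RNA it had 1, 2 and 0 counts. MT-TS2 (4983 ± 215 FPM), MT-TY (2985 ± 364 FPM) and MT-TC (2602 ± 309 FPM) followed, and 16 of the 22 genes had at least 175.5 FPM.

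The remaining 6 were almost absent from small RNA. MT-TW, MT-TN and MT-TQ had 2, 2 and 1 fragments in all, and MT-TA, MT-TS1 and MT-TK had 0, which allows up to 1.88 FPM over the group. In total RNA, MT-TP had 3.85, 3.31 and 2.41 CPM, MT-TW 1.25, 1.10 and 1.32 CPM and MT-TT 1.25, 1.34 and 1.08 CPM, and 10 of 22 genes were at 0. MT-TW thus had rank 2 of the class in total RNA and shared rank 17 in small RNA. Genes on the + strand summed to 37479 ± 4632 FPM (14 genes) and those on the - strand to 7474 ± 754 FPM (8 genes), or 12461 ± 2146 FPM on the + strand without MT-TV.

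**Figure D5:**
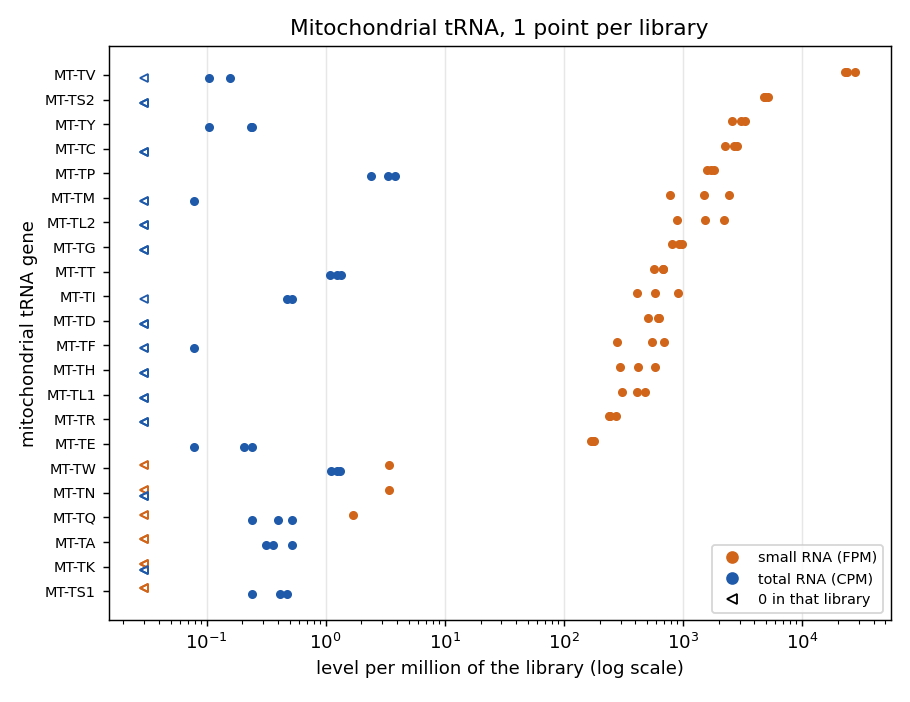
Level of the 22 mitochondrial tRNA genes (CPM or FPM, log scale) in WT small RNA (orange, FPM) and total RNA (blue, CPM), 1 point per library, arrowheads marking 0. MT-TV leads small RNA at 25019 FPM, and the lowest 6 genes have 2 fragments or fewer.

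7SK was the highest short noncoding RNA in all 3 total RNA libraries, with 509191, 713947 and 443686 counts (54220 ± 1835 CPM) for ENSG00000202198.1 (chromosome 6, 52995620 to 52995951). No annotated small RNA feature was matched to its ends. A locus that the authors reconstructed from the reads (chromosome 6, 52995616 to 52996003, + strand) covers it, and its 1026, 921 and 1140 fragments came to 1934 ± 61.8 FPM. That is 0.193% of small RNA against 5.42 ± 0.18% of total RNA, a ratio of 28.0. Reconstructed loci were looked up after the data had been seen, and the fragments in one may belong to other RNAs.

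The same look-up gave 2903 ± 219 FPM at RN7SL1 and 2432 ± 319 FPM at RN7SL2, the 7SL genes, and 110 ± 13.1 FPM at RN7SL3. In total RNA RN7SL3 led with 104 ± 6.01 CPM, RN7SL2 had 55.2 ± 8.82 CPM and RN7SL1 was at 0. RMRP and RPPH1, the RNAs of RNase MRP and RNase P, were at 0 in total RNA, while loci covering them held 785 ± 29.4 and 817 ± 39.2 FPM. TERC, the telomerase RNA, had 2, 2 and 3 counts in total RNA and 7 fragments in all at a locus covering part of it.

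Among Y RNAs, RNY3 led small RNA at 1861 ± 433 FPM, ahead of RNY4 (881 ± 104 FPM) and RNY1 (688 ± 13.8 FPM). In total RNA the order was reversed, with RNY1 at 26.6, 17.4 and 14.6 CPM, RNY4 at 5.08 ± 1.29 CPM and RNY3 at 3, 4 and 4 counts. The ratio of RNY3 to RNY1 was 0.0210 ± 0.0109 in total RNA and 2.71 ± 0.635 in small RNA. A reconstructed locus covering RNY5 held 2749 ± 490 FPM, and being 319 nt long against 84 nt for the gene it may hold more than RNY5.

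Vault RNAs were scarce in small RNA. VTRNA1-3 had 948, 1066 and 698 counts (88.9 ± 8.44 CPM), 97.3% of the class in total RNA, and 71.5 ± 15.7 FPM in small RNA (log2 ratio -0.31, edgeR adjusted p = 0.203), and the groups overlapped. VTRNA1-1 had 1.84 ± 0.389 CPM and 33.1 ± 12.9 FPM, and VTRNA1-2 0.615 ± 0.191 CPM and 20.0 ± 1.59 FPM. VTRNA2-1, a vault-like RNA, was at 0 in both assays. The ratio of VTRNA1-3 to VTRNA1-1 was 49.3 ± 8.60 in total RNA and 1.65, 4.20 and 1.63 in small RNA, a mean of 2.49, or 1.64 without library 2.

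MicroRNAs, which guide silencing of mRNAs, gave few fragments. Of 1545 microRNA hairpins listed 43 had fragments, 296 in all over the 3 small RNA libraries. MIR3609 had 83, MIR20A 58, MIR16-1 39, MIR182 24 and MIR17 20. Counts are per hairpin and do not tell the arms apart. The 5′ arm products of the last 4, from RefSeq (GRCh38.p14), are shown as RNAs near the lower end of the size window, with the seed (bases 2 to 8) in capitals, and MIR20A and MIR17 share it.
hsa-miR-20a-5p: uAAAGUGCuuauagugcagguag
hsa-miR-17-5p: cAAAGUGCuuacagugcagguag
hsa-miR-16-5p: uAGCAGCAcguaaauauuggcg
hsa-miR-182-5p: uUUGGCAAugguagaacucacacu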

How the data were processed

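WT cells were sequenced in 3 libraries per assay, and the mut libraries were not used. Tools listed in the submitters' processing notes, with no roles, are STAR 2.4.0, HTSeq 0.6.1, SAMtools 1.2-10, CASAVA 1.8.2, DESeq2 1.8.2 and FastQC 0.11.3, on build hg38. Annotation version and strand setting: not given in the sources used here. The total RNA files the authors deposited hold raw read counts of 60483 Ensembl genes; rows that name no gene (57.8% to 63.0% of reads) were left out of library sizes. For small RNA the authors deposited fragment counts, the FPM signal and FPKM of 15590 features, 4794 of them loci reconstructed from the reads. Features nest, so the library total is the denominator behind the deposited FPM signal. The FPKM values were not used further.

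Members and lists were chosen with earlier results of these data known. Of the 60483 Ensembl identifiers 56321 matched a symbol. Small RNA features were named from RefSeq genes (GRCh38.p14, the same build) whose ends both lay within 5 nt (5695 of 10796 annotated features, 96.3% of their fragments), 1 feature per gene, and symbols set the class. Class shares were compared with exact two-sided permutation tests, Benjamini-Hochberg adjusted over 13 classes. Matched genes were tested with edgeR 4.0.16 (R 4.3.3; quasi-likelihood, filterByExpr, whole library totals as sizes, adjusted p at 0.05); 16 symbols with several Ensembl identifiers were left out. Tested on simulated data for this comparison, 143 of 148 genes changed 4-fold were recovered among 295, with 5 false calls (3.40% of unchanged genes). Levels before the change were means over both assays, so genes near 0 in total RNA alone were not simulated. Named genes are the 3 highest per class and assay, the 10 largest called differences each way without overlap, and a set list; host, family, ratio and microRNA genes were added after their values were seen. Floors are 3 counts, and floors cover counting error only. No replicate pair agreed within sampling noise (chi-square per degree of freedom 2.62 to 3.97 in total RNA, 11.8 to 12.7 in small RNA). Alternatives were other denominators, scalings, filters and name tolerances, DESeq2 1.42.0, a replicate block and leaving out each library.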

Additional observations from a re-analysis of the deposited data

Results flagged for a closer look

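Both results here were picked because they show signal in features of the small RNA files that no comparison used, although nested features can share fragments with features that were used. MicroRNA hairpins held 296 fragments over the 3 libraries, in 43 of 1545 hairpins listed. Annotated features that matched no RefSeq gene at both ends within 5 nt held 3.27 ± 0.11% of the small RNA library, with fragments in 122 of 5101 features. Such a feature may still belong to a known gene. The highest of these, of 64 nt and 74 nt, had 7708 ± 529 FPM and 7703 ± 847 FPM, a level that would rank them among the 25 highest members. The first lies near SNORD58A and SNORD58B on chromosome 18 and the second near SNORA61 on chromosome 1. Whether they are snoRNAs was not tested, and they are in no class above. The next highest feature, of 84 nt at 4082 FPM, encloses TRA-AGC4-1 (4081 FPM), so its fragments are largely those already counted as nuclear tRNA. Neither the microRNA total nor the share without a matched gene was set against a control library.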

How the results depend on the processing

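Class shares kept their direction in 155 alternatives and reversed in 14. As shares of the short noncoding counts alone, small RNA minus total RNA was -1.08 percentage points for U1, -0.955 for scaRNA and -0.139 for vault RNA. With 7SK also left out, a choice made after seeing the data, it was -14.7 for U1, -14.9 for U4, -0.207 for U6, -32.4 for box H/ACA snoRNAs, -11.7 for scaRNA, -0.0590 for Y RNA and -1.71 for vault RNA. Requiring both ends to be equal leaves fewer features named (5096), and the differences were then -0.0903 for U4, -0.0146 for U5, -0.00969 for scaRNA and -0.00913 for vault RNA. For U4, U5 and vault RNA no small RNA feature stayed named, so these reversals follow from the naming alone. With lengths of the small RNA features, total RNA genes of up to 80 nt held 0.0590% and of 81 to 120 nt 0.561% of short noncoding counts, or 0.670% and 6.28% without 7SK. The matched genes lower in small RNA numbered 75 with TMM, and DESeq2 with its own size factors called 174 higher and 97 lower; the cause was not tested. With equal ends, which leaves fewer genes tested, 170 were higher and 7 lower. Leaving out each library gave 236 to 263 higher and 10 to 17 lower. Equal replicate numbers did not pair the libraries (correlations of deviations -0.138, 0.135 and -0.111), and the fit with the replicate block called 261 higher and 12 lower. RNVU1-3 fell short of the threshold without small RNA library 1. Small RNA depth limits members under about 6 FPM and total RNA depth those under about 0.4 CPM.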
